A study of Mus musculus with 3 samples.

Results

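The cells described here are bone marrow-derived macrophages (BMDMs) with a high summed share of *Lgals3* and *Atp6v0a1* transcripts, which is mainly a high share of *Lgals3*. Of 16281 barcodes in 3 libraries, 15806 passed the limits of more than 500 unique molecular identifiers (UMIs, 1 per captured transcript), more than 500 genes and under 5% mitochondrial UMIs, and 15626 of these had at least 2000 UMIs and were ranked. The score of a cell was its *Lgals3* and *Atp6v0a1* UMIs divided by all its UMIs. The top 20% of each library was taken, and cells that were also in the top 20% of that library for *Apoe*, *Slc9a9* and *Selenop*, or for *Fgf13*, *Ccnd1* and *Lpl*, were left out. This gave 2488 cells, called high cells, and 13138 other cells. High cells made up 918 of 5949 ranked cells in Ctrl (15.4%), 834 of 5052 in LP1 (16.5%) and 736 of 4625 in LP4 (15.9%), shares that the rule largely fixes.

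BMDMs were grown from the bone marrow of female C3H/HeN mice aged 6 to 8 weeks and their transcripts were counted by droplet single-cell RNA sequencing. LP1 and LP4 cells received 1 µg/mL of *Bb*LP, lipoproteins purified from the Lyme disease spirochete *Borrelia burgdorferi*, for 1 and 4 hours. Ctrl cells received PBS and were collected with LP4 at 4 hours. Each condition was captured once, from 3 wells combined, so replicates are lacking, no test was run, and every interval covers counting error only. The libraries hold 35749924 (Ctrl), 52773906 (LP1) and 64787139 (LP4) UMIs, and the high cells of each contribute 6228430, 10155544 and 12294451 UMIs. Since the same counts chose the cells, each difference between high and other cells is a description.

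Galectin-3, the product of *Lgals3*, is a lectin that binds β-galactosides and is abundant in macrophages, both in the cytosol and secreted, and it gathers on damaged endosomes and lysosomes. *Atp6v0a1* encodes an a subunit of the membrane sector of the vacuolar ATPase (V-ATPase), the proton pump that acidifies endosomes and lysosomes. Lysosomes of macrophages digest proteins and lipids taken up by phagocytosis, and the cathepsins that do so work best at low pH. Bacterial lipoproteins are sensed by heterodimers of TLR2, which signal through MyD88 to NF-κB and MAP kinases.

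*Lgals3* (ENSMUSG00000050335) lies on the plus strand of chr14:47367751-47386160 and *Atp6v0a1* (ENSMUSG00000019302) on the plus strand of chr11:101009452-101063719, in the GENCODE vM21 annotation of mouse GRCm38, also called mm10. Levels are given as UMIs of a gene per 1000000 UMIs of the summed cells (CPM). For *Lgals3* they were 17082, 15945 and 12070 CPM in the high cells of Ctrl, LP1 and LP4 and 8094, 7538 and 5349 CPM in other cells, log2 differences of 1.08, 1.08 and 1.17. *Atp6v0a1* stood at 695, 493 and 264 CPM in high cells and 456, 351 and 174 CPM in other cells, with log2 differences of 0.61, 0.49 and 0.60. At or above the library median for *Atp6v0a1* were 72.3%, 68.3% and 70.0% of high cells and 45.9%, 46.4% and 46.2% of other cells. No *Atp6v0a1* UMI was found in 68, 39 and 93 high cells. *Lgals3* gave 96.1%, 97.0% and 97.9% of the UMIs in the score. A ranking by *Lgals3* alone therefore kept 96.7%, 97.5% and 97.8% of the high cells in Ctrl, LP1 and LP4, whereas a ranking by *Atp6v0a1* alone kept 35.6%, 32.6% and 33.3% of them. These shared cells were 96.8%, 97.4% and 97.3% of the cells that *Lgals3* alone chose and 44.6%, 41.8% and 44.9% of those that *Atp6v0a1* alone chose. When cells were chosen on a random split of their UMIs and read from the UMIs not used, the log2 differences were 1.01, 1.03 and 1.13 for *Lgals3* and 0.59, 0.46 and 0.58 for *Atp6v0a1*, so most of the separation remained in counts that had not chosen the cells.

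The high cells are defined by a limit on a score and are a range, not a type. The lowest score among them was 13587 per 1000000 UMIs in Ctrl cells, 12401 in LP1 cells and 8909 in LP4 cells, and the highest score outside the top 20% was 13580, 12400 and 8906. Within 10% above the limit lay 242, 219 and 177 high cells (26.4%, 26.3% and 24.0% of them), and within 10% below it 367, 347 and 274 other cells. The median *Lgals3* level of high cells was 15953, 14848 and 11016 CPM, and that of other cells 7368, 7053 and 4745 CPM. High cells were also deeper, with medians of 6111, 11156.5 and 15245 UMIs per cell against 5053, 8973 and 11204 in other cells. The mitochondrial share was close in both, with medians of 1.97%, 2.78% and 3.09% in high cells and 1.97%, 2.85% and 3.19% in other cells.

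**Figure D1:**
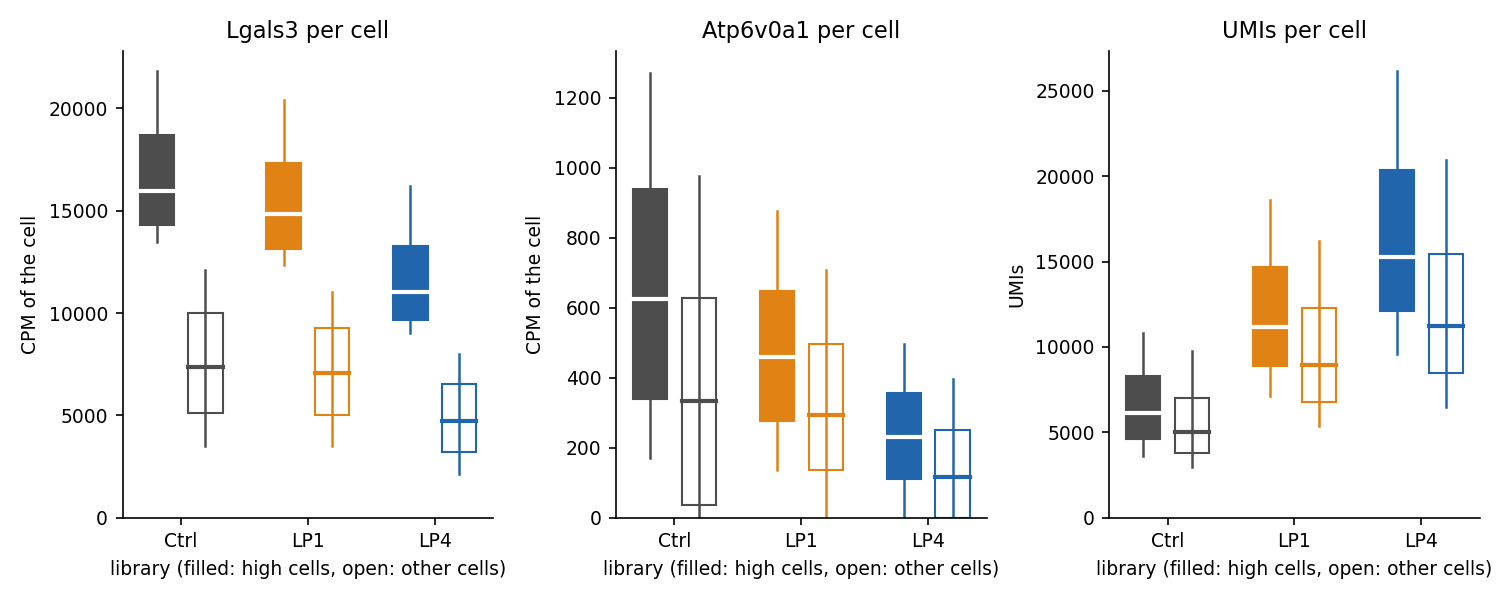
Per-cell *Lgals3* CPM, *Atp6v0a1* CPM and UMIs per cell in the high cells (filled) and other cells (open) of Ctrl, LP1 and LP4, with boxes for quartiles, a bar for the median and lines from the 10th to the 90th percentile. The *Lgals3* medians of high cells are 15953, 14848 and 11016 CPM against 7368, 7053 and 4745 in other cells, and the high cells are the deeper cells in every library.

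The macrophage label was held against 13 markers, of which none was at 0 UMIs in high cells. *Cd68*, a lysosomal glycoprotein of macrophages, had median values over cells of 963, 1020 and 703 CPM in the high cells of Ctrl, LP1 and LP4 and 801, 848 and 552 CPM in other cells. *Csf1r*, the receptor for the macrophage growth factor M-CSF, had medians of 613, 416 and 335 CPM in high cells and 747, 509 and 415 CPM in other cells. *Lyz2*, lysozyme, was the most abundant of the 13, with medians of 6264, 6791 and 5992 CPM in high cells and 9281, 9500 and 8461 CPM in other cells. The summed level of the 13 markers was 9955, 10484 and 10264 CPM in high cells against 13120, 13637 and 13160 CPM in other cells, so high cells carried the markers at a lower summed level. Of the genes used to leave cells out, *Apoe* and *Ccnd1* had a median of 0 in both groups, *Selenop* had medians of 178, 178 and 211 CPM in high cells and 461, 398 and 540 CPM in other cells, and *Lpl*, lipoprotein lipase, had medians of 1897, 2373 and 2004 CPM in high cells and 1514, 2335 and 1670 CPM in other cells.

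Among 2729 genes with at least 50 CPM in high or other cells of every library, genes of the rule left out, 148 (5.42%) were at least 25% higher in high cells in all 3 libraries and 258 (9.45%) at least 20% lower, which is the same fold in both directions. Genes called higher or lower in what follows passed that fold. Taken alone, Ctrl gave 235 higher (8.61%) and 542 lower (19.9%), LP1 201 (7.37%) and 485 (17.8%), and LP4 253 (9.27%) and 418 (15.3%). The balance of the directions depended on the scaling. CPM gave 36.5% higher among the genes called, TMM gave 190 higher and 187 lower (50.4% higher) and the median of ratios 211 higher and 164 lower (56.3%). With CPM the median log2 difference of all 2729 genes was -0.07, -0.09 and -0.06 in Ctrl, LP1 and LP4. Against only those other cells that were also outside both left-out sets, 144 (5.30% of 2715) were higher and 235 (8.66%) lower, of which 134 and 217 were among the genes above.

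The 12 leading higher genes are of different kinds. *Atp6v0d2*, a d subunit of the V-ATPase found in osteoclasts and some macrophages, had 469, 409 and 326 CPM in the high cells of Ctrl, LP1 and LP4 and 136, 124 and 88.1 CPM in other cells. Its log2 differences were 1.78 (1.71 to 1.85), 1.73 (1.67 to 1.78) and 1.89 (1.83 to 1.95), the highest among the 12 leading higher genes. *Ctsk*, cathepsin K, a collagen-degrading protease, was at 193, 219 and 284 CPM in high cells and 63.6, 71.6 and 90.3 CPM in other cells (log2 1.60, 1.61 and 1.65). In each library these 2 genes were about as far apart between the groups as in the others, although *Atp6v0d2* had its lowest level in LP4 and *Ctsk* its highest.

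*Mfge8* encodes a secreted protein that bridges phosphatidylserine on dying cells to integrins of phagocytes. It had 357, 210 and 200 CPM in high cells and 115, 72.8 and 69.8 CPM in other cells, log2 differences of 1.63, 1.53 and 1.52. *Mmp12*, macrophage elastase, had 1129, 1629 and 2041 CPM in high cells and 410, 668 and 735 CPM in other cells (log2 1.46, 1.29 and 1.47). *Ckb*, the brain-type creatine kinase, had 730, 801 and 536 CPM in high cells and 274, 282 and 207 CPM in other cells (log2 1.42, 1.505 and 1.37). All 3 genes kept a difference of more than 2-fold in each library. *Itgax*, which encodes the integrin CD11c, was at 154, 148 and 136 CPM in high cells and 66.5, 70.1 and 52.5 CPM in other cells (log2 1.21, 1.07 and 1.37). *Anxa1*, annexin A1, a phospholipid-binding protein, was at 991, 1154 and 1319 CPM in high cells and 545, 635 and 644 CPM in other cells (log2 0.86, 0.86 and 1.03). *Txnip*, which binds thioredoxin, had log2 differences of 1.60 in Ctrl and 1.51 in LP1 and a smaller one of 0.91 in LP4. The remaining 4 of the 12 were *Ppdpf*, *Dnmt3a* (a DNA methyltransferase), *Ifi30* (a lysosomal thiol reductase) and *Il11ra1* (a receptor for interleukin 11), with log2 differences between 0.87 and 1.27.

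**Figure D2:**
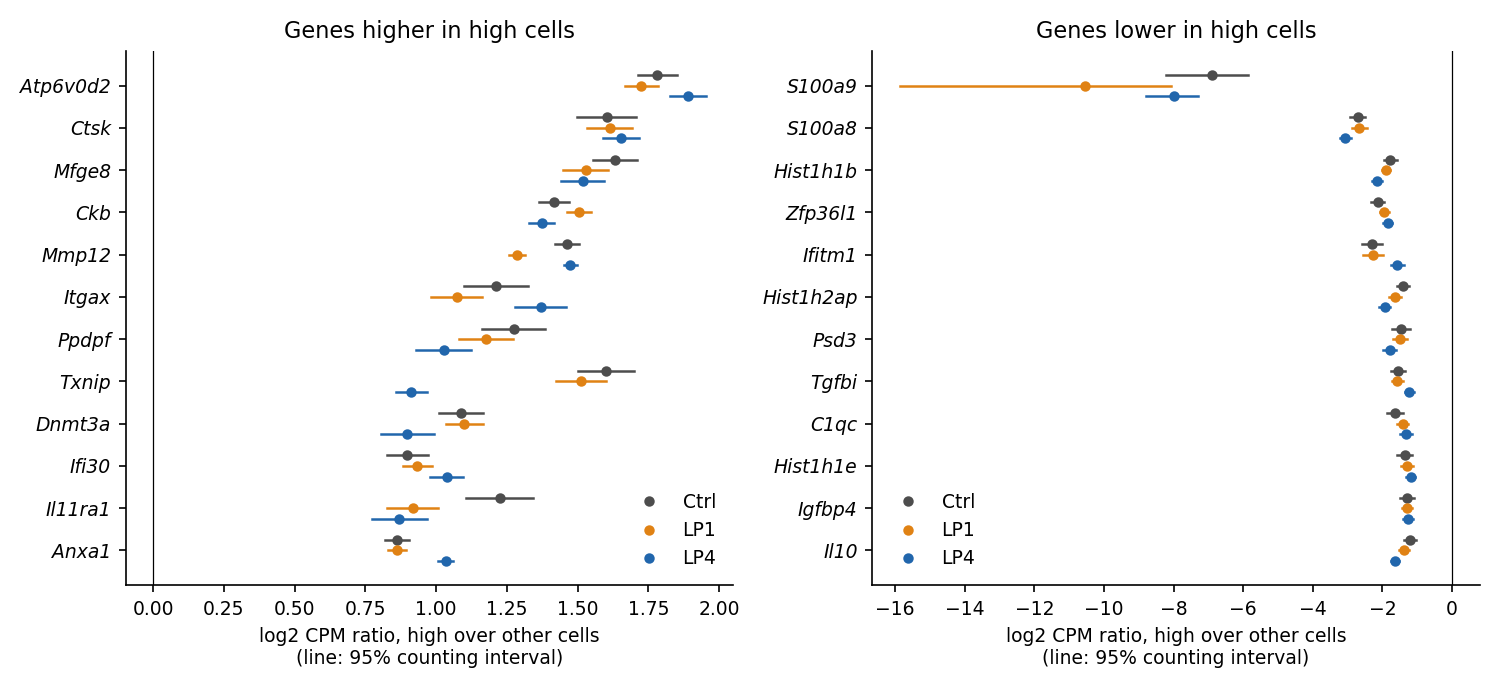
Log2 difference in CPM between high and other cells for the 12 leading genes in each direction, with 95% counting intervals, in Ctrl, LP1 and LP4. *Atp6v0d2* lies at 1.78, 1.73 and 1.89, and *S100a9* lies far to the left on 7, 1 and 16 UMIs in high cells.

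Cells chosen by *Atp6v0a1* alone had smaller differences. The log2 values in Ctrl, LP1 and LP4 were then 1.29, 1.15 and 1.35 for *Atp6v0d2*, 1.39, 0.96 and 1.22 for *Ctsk* and 1.04, 0.85 and 1.19 for *Mmp12*. Scores computed after each cell was thinned to 2000 UMIs, which gives every cell the same depth in the ranking, gave 1.62, 1.59 and 1.57 for *Atp6v0d2* and 1.47, 1.46 and 1.06 for *Ctsk*. Under both settings each of these genes stayed higher in high cells in every library.

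Of 16 measured subunits and accessory genes, without *Atp6v0a1*, 6 were higher in all 3 libraries, 10 were neither and none was lower, and 8, 10 and 7 were higher in Ctrl, LP1 and LP4 taken alone. Against other cells outside both left-out sets 9 of the 16 were higher in all 3 libraries. Among all genes 5.42% were higher in all 3 against other cells and 5.30% against those outside the sets. The list's median log2 difference was 0.36, 0.35 and 0.30, beside -0.07, -0.09 and -0.06 for all genes. The 6 were *Atp6v0c*, *Atp6v0d2*, *Atp6v0e* and *Tcirg1* of the membrane sector and *Atp6v1d* and *Atp6v1f* of the sector that hydrolyses ATP. *Atp6v0c*, which encodes the proteolipid of the rotor ring, had 1791, 1829 and 1460 CPM in high cells and 1270, 1288 and 1021 CPM in other cells (log2 0.50, 0.51 and 0.52). *Tcirg1*, the a3 subunit used by osteoclasts and macrophage lysosomes, had 480, 378 and 343 CPM in high cells and 326, 247 and 268 CPM in other cells (log2 0.56, 0.62 and 0.35). Apart from *Atp6v0d2*, the subunits therefore differed by less than the leading genes did.

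Lysosomal genes were higher in part. Of 28 measured, 9 were higher in all 3 libraries (*Ctsd*, *Ctsk*, *Ctsl*, *Ctss*, *Ctsz*, *Gla*, *Lipa*, *Cd63* and *Acp5*), *Ctsc* was lower and 18 were neither. Among all genes 5.42% were higher and 9.45% lower in all 3. The list's median log2 difference was 0.19, 0.16 and 0.09. *Ctsl*, cathepsin L, was at 7025, 10137 and 13735 CPM in high cells and 3905, 4880 and 8414 CPM in other cells (log2 0.85, 1.05 and 0.71). *Ctsd*, the aspartic protease cathepsin D, was at 11237, 8784 and 6431 CPM in high cells and 8205, 6345 and 5079 CPM in other cells (log2 0.45, 0.47 and 0.34). *Cd63*, a tetraspanin of late endosomes, was at 2173, 2113 and 1656 CPM in high cells and 1228, 1182 and 964 CPM in other cells (log2 0.82, 0.84 and 0.78). The higher proteases thus included aspartic and cysteine cathepsins. *Acp5*, tartrate-resistant acid phosphatase, an enzyme of osteoclasts and tissue macrophages, was at 152, 157 and 141 CPM in high cells and 74.4, 62.5 and 80.3 CPM in other cells (log2 1.03, 1.33 and 0.81). *Ctsc*, the dipeptidyl peptidase that activates granule serine proteases, went the other way, with 40.1, 55.4 and 160 CPM in high cells and 183, 187 and 285 CPM in other cells (log2 -2.19, -1.76 and -0.83).

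The list of lipid handling had the highest median among lists with at least 5 measured genes, 0.52, 0.49 and 0.55 on the log2 scale. In all 3 libraries 11 of 17 measured genes were higher and 1 lower, beside 5.42% and 9.45% of all genes. The 11 were *Gpnmb*, *Fabp4*, *Fabp5*, *Plin2*, *Mmp12*, *Itgax*, *Syngr1*, *Capg*, *Cstb*, *Abcg1* and *Soat1*. Not all of them handle lipid themselves, since *Mmp12* encodes an elastase, *Itgax* an integrin, *Capg* an actin-capping protein, *Cstb* a protease inhibitor and *Syngr1* a vesicle protein. *Fabp5*, a fatty acid-binding protein, had 6973, 6151 and 4314 CPM in high cells and 3885, 3305 and 2390 CPM in other cells (log2 0.84, 0.90 and 0.85). *Gpnmb*, a glycoprotein of lipid-laden macrophages, had 11362, 10897 and 8001 CPM in high cells and 8050, 7538 and 5479 CPM in other cells (log2 0.50, 0.53 and 0.55). *Plin2*, a coat protein of lipid droplets, had 761, 631 and 492 CPM in high cells and 419, 370 and 302 CPM in other cells (log2 0.86, 0.77 and 0.70). *Abcg1*, a cholesterol exporter, was among the 11, while *Abca1*, another, was lower, at 234, 228 and 157 CPM in high cells and 385, 311 and 247 CPM in other cells (log2 -0.72, -0.45 and -0.65). Against other cells outside both left-out sets *Abca1* in LP1 was at -0.26, short of the fold. *Trem2*, a lipid-sensing receptor, was past the fold in LP4 alone, with log2 differences of 0.26, 0.22 and 0.36. Of 9 genes of cholesterol synthesis, *Fdps* and *Sqle* were higher in all 3 libraries.

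Genes of iron storage and antioxidant defence were divided in LP4. Of 14 measured, *Fth1*, *Ftl1*, *Prdx1*, *Txn1* and *Blvrb* were higher in all 3 libraries and none was lower in all 3, with a list median of 0.25, 0.16 and -0.10. In LP4 the remaining genes past the fold were 4 that were lower, *Gclc* (-0.48), *Slc7a11* (-0.38), *Mt1* (-0.33) and *Tfrc* (-0.32). Over all genes 9.27% were higher and 15.3% lower in LP4, and 5.42% and 9.45% in all 3 libraries. *Fth1*, ferritin heavy chain, stood at 66269, 76867 and 72563 CPM in high cells and 42567, 52688 and 55944 CPM in other cells (log2 0.64, 0.54 and 0.38). *Prdx1*, a peroxiredoxin, stood at 2093, 3050 and 3445 CPM in high cells and 1163, 1774 and 2057 CPM in other cells (log2 0.85, 0.78 and 0.74). Of 17 genes for S100 proteins, annexins and related calcium-binding or cytoskeletal proteins, *S100a1*, *S100a11*, *Anxa1*, *Anxa4* and *Tmsb10* were higher in all 3 libraries and none lower. *S100a11* stood at 530, 504 and 603 CPM in high cells and 299, 298 and 305 CPM in other cells (log2 0.82, 0.76 and 0.98). *Cyba*, the p22phox subunit of the phagocyte NADPH oxidase, stood at 2963, 2830 and 2005 CPM in high cells and 1846, 1776 and 1191 CPM in other cells (log2 0.68, 0.67 and 0.75).

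**Figure D3:**
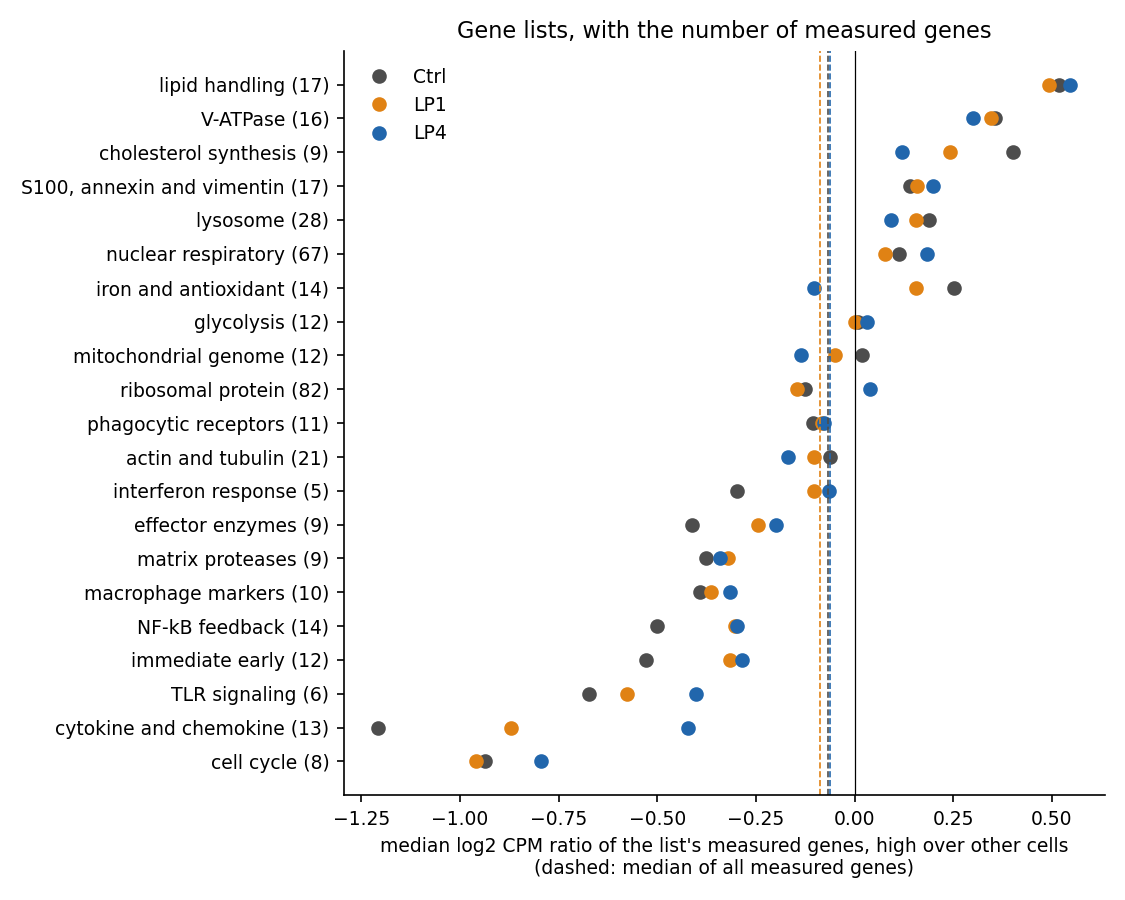
Median log2 difference between high and other cells for the 21 gene lists with at least 5 measured genes, in Ctrl, LP1 and LP4, with the dashed line at the median of all genes. Lipid handling (0.52, 0.49 and 0.55) lies highest in each library, followed by cholesterol synthesis (0.40) in Ctrl and the V-ATPase in LP1 (0.35) and LP4 (0.30), and the cytokine and chemokine list (-1.21, -0.87 and -0.42) and the cell cycle list (-0.94, -0.96 and -0.79) lie lowest.

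Inflammatory genes were lower in high cells already in Ctrl. Of 13 measured cytokines and chemokines, 8 were lower in all 3 libraries and none higher, namely *Il1a*, *Il1b*, *Il10*, *Cxcl2*, *Cxcl16*, *Ccl2*, *Ccl4* and *Ccl7*. The list median was -1.21, -0.87 and -0.42 in the 3 libraries, where 12, 11 and 9 of the 13 genes were lower. Of all genes, 19.9%, 17.8% and 15.3% were lower in Ctrl, LP1 and LP4, and 9.45% were lower and 5.42% higher in all 3. *Il1b*, interleukin 1β, had 151, 253 and 574 CPM in high cells and 442, 495 and 1031 CPM in other cells (log2 -1.55, -0.97 and -0.84). *Ccl7*, a monocyte chemoattractant, had 39.0, 74.6 and 86.4 CPM in high cells and 187, 294 and 164 CPM in other cells (log2 -2.26, -1.98 and -0.92). *Il10*, an anti-inflammatory cytokine, had 48.3, 45.6 and 52.1 CPM in high cells and 112, 119 and 163 CPM in other cells (log2 -1.21, -1.38 and -1.64). The gap was narrower in LP4 than in Ctrl for *Il1b* and *Ccl7* and wider for *Il10*.

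Some genes of sensing and signaling were lower too. Of 6 measured genes of TLR signaling, *Tlr2*, *Cd14* and *Tab2* were lower in all 3 libraries and none higher. For this list and those below, the shares over all genes were 9.45% lower and 5.42% higher. *Tlr2*, the receptor for bacterial lipoproteins, had 39.2, 46.2 and 186 CPM in high cells and 121, 136 and 339 CPM in other cells (log2 -1.63, -1.56 and -0.87). *Cd14*, a coreceptor that delivers lipoproteins and lipopolysaccharide to TLRs, had 177, 396 and 993 CPM in high cells and 315, 645 and 1501 CPM in other cells (log2 -0.83, -0.70 and -0.60). Both genes were lower in high cells in each library and higher in LP4 than in Ctrl in either group. Of 14 genes of NF-κB feedback, *Nfkbiz*, *Nfkb2*, *Birc3* and *Traf1* were lower in all 3 libraries and none higher. *Nfkbiz*, a nuclear IκB protein, had 298, 432 and 255 CPM in high cells and 593, 747 and 365 CPM in other cells (log2 -0.99, -0.79 and -0.52). Of 12 immediate early genes, *Fosl2*, *Ier3* and *Zfp36* were lower in all 3 libraries. In LP4 alone, *Fos* (log2 1.49), *Jun* (0.79) and *Atf3* (0.37) were higher in high cells. *Ier3*, a stress-induced survival gene, had 208, 229 and 190 CPM in high cells and 620, 588 and 390 CPM in other cells (log2 -1.58, -1.36 and -1.03). The effector enzymes were mixed, with *Ncf4* and *Cyba* higher and *Acod1*, *Ptgs2* and *Hif1a* lower among 9. *Ptgs2*, cyclooxygenase 2, had 24.7, 44.2 and 142 CPM in high cells and 66.1, 87.0 and 347 CPM in other cells (log2 -1.42, -0.98 and -1.29).

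The macrophage marker list had a median of -0.39, -0.36 and -0.32, with *Fcgr1*, *Lyz2*, *Cd14* and *C1qc* among the genes lower in all 3 libraries and none higher. *C1qc*, a chain of complement C1q, had 27.3, 32.4 and 26.6 CPM in high cells and 84.5, 86.9 and 66.3 CPM in other cells (log2 -1.63, -1.42 and -1.32). Of 11 phagocytic receptors, *Fcgr1*, *Fcgr2b*, *Mrc1* and *Stab1* were lower and *Itgb2* was higher in all 3 libraries. For the lists of this paragraph, the shares over all genes were 9.45% lower and 5.42% higher. *Mrc1*, the mannose receptor, had 75.9, 69.6 and 106 CPM in high cells and 164, 158 and 231 CPM in other cells (log2 -1.11, -1.18 and -1.12). *Itgb2*, the shared β chain of the leukocyte integrins, had 368, 417 and 472 CPM in high cells and 237, 259 and 262 CPM in other cells (log2 0.63, 0.68 and 0.85). Among 9 matrix proteases and related genes, *Mmp12* was higher while *Mmp8*, *Mmp13* and *Plau* were lower. *Zfp36l1*, which encodes an RNA-binding protein that promotes mRNA decay, had 41.1, 53.8 and 43.2 CPM in high cells and 180, 207 and 156 CPM in other cells. Its log2 differences were -2.13 (-2.32 to -1.95), -1.94 and -1.85. Of the leading lower genes, *Igfbp4* (log2 -1.29, -1.28 and -1.27), *Tgfbi* (-1.55, -1.57 and -1.23), *Psd3* (-1.47, -1.50 and -1.80) and *Ifitm1* (-2.29, -2.28 and -1.57) also stood apart in each library.

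Some of the lower genes belong to dividing cells. Of 8 measured cell cycle genes, *Mki67*, *Top2a*, *Mcm6*, *Stmn1* and *Hmgb2* were lower in all 3 libraries and none higher, beside 9.45% and 5.42% of all genes. The whole list summed to 1186, 1362 and 1414 CPM in high cells against 1779, 2121 and 2017 CPM in other cells. *Mki67*, a marker of proliferating cells, had 113, 113 and 193 CPM in high cells and 244, 247 and 326 CPM in other cells (log2 -1.12, -1.14 and -0.76). *Hist1h1b*, a linker histone of S phase, had 41.9, 56.5 and 34.2 CPM in high cells and 143, 211 and 151 CPM in other cells (log2 -1.77, -1.90 and -2.15). Without the 10% of cells highest for the cell cycle list, *Hist1h1b* had log2 differences of -0.60, -1.69 and -0.24 and *Hist1h2ap*, a core histone, turned from -1.41, -1.64 and -1.94 to 0.12, 0.03 and 0.26. *Mki67* then had -1.07, -0.99 and -0.52 and *Top2a*, a topoisomerase of dividing cells, -0.37, -1.04 and -0.58. Both of these genes are on the list that chose the cells left out, which in part fixes their values. *Zfp36l1* then had -2.17, -2.04 and -1.86 and *Ctsk* 1.64, 1.57 and 1.53, and 138 genes were higher and 257 lower in all 3 libraries, 133 and 226 of them among the genes called with all cells.

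The lower genes also held 2 neutrophil transcripts. *S100a9*, a subunit of calprotectin, had 1.12, 0.0985 and 1.30 CPM in high cells (7, 1 and 16 UMIs) and 135, 148 and 330 CPM in other cells, with log2 differences of -6.91, -10.56 (-15.86 to -8.08) and -7.98. *S100a8*, its partner, had 26.7, 17.4 and 28.6 CPM in high cells and 175, 110 and 240 CPM in other cells (log2 -2.71, -2.66 and -3.06). The list of 10 neutrophil genes summed to 30.3, 18.5 and 44.5 CPM in high cells and 373, 334 and 695 CPM in other cells, with *S100a8* the most abundant in high cells and *Elane* at 0 UMIs in the high cells of each library. Without the 2% of cells highest for the neutrophil and dendritic cell lists, *S100a8* had log2 differences of 0.55, 0.65 and 0.23 and *S100a9* -0.20, -2.32 and -0.35. With cells chosen by *Atp6v0a1* alone *S100a9* had -6.93, -7.63 and -0.59. Both genes are on the list that chose the cells left out. With those cells left out 148 genes were past the fold upward and 254 downward, 143 and 243 of them among the genes called with all cells.

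Markers of other cell types did not all lie on the same side. The dendritic cell list, with 1 measured gene, summed to 213, 220 and 279 CPM in high cells and 191, 189 and 168 CPM in other cells, a difference past the fold in LP4 alone. In other cells outside both left-out sets the sums were 211, 212 and 205 CPM. *Ccr7*, a receptor of migrating dendritic cells, was at 0 UMIs in the high cells of each library. *Cd74*, the invariant chain of MHC class II, was its most abundant gene, with 127, 120 and 163 CPM in high cells and 117, 104 and 96.8 CPM in other cells (log2 0.11, 0.20 and 0.75). When cells were chosen by *Atp6v0a1* alone, the *Cd74* differences were -0.61, -1.27 and -0.91, so their sign turned in all 3 libraries. Monocyte markers summed to 25.2, 27.7 and 93.5 CPM in high cells and 95.9, 97.1 and 284 CPM in other cells. Stromal markers summed to 0.321, 1.28 and 3.09 CPM in high cells and 6.46, 7.49 and 26.1 CPM in other cells. Mast cell and basophil markers summed to 7.06, 6.70 and 1.30 CPM in high cells and 3.86, 4.82 and 1.14 CPM in other cells. No gene of this list was among the measured genes, and *Gata2* was the most abundant. *Mcpt8*, *Fcer1a* and *Prss34* had no UMI in the high cells of any library, and in LP1 *Gata2* alone had any.

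Some families had few or no genes past the fold in all 3 libraries. Of 82 ribosomal protein genes, 12 protein genes of the mitochondrial genome and 12 glycolysis genes, none was past it in either direction. None of 5 interferon response genes was either, although the list median in Ctrl was -0.30 on the log2 scale. Of 67 nuclear genes of the respiratory chain only *Ndufa13* was, upward. The other measured galectins, *Lgals1*, *Lgals9* and the ligand *Lgals3bp*, were not past the fold in all 3 libraries. *Lgals1* had log2 differences of 0.24, 0.17 and 0.31. Of 21 actin and tubulin genes *Tpm1* was higher and *Cap1*, *Coro1a* and *Tuba1b* lower, beside 5.42% and 9.45% of all genes.

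To see whether these genes changed along the score or only at its top, the cells outside both left-out sets were divided into 5 equal bins of the score in each library. *Atp6v0d2* went from 45.3 CPM in the lowest bin to 504 in the highest in Ctrl, from 45.8 to 448 in LP1 and from 28.8 to 359 in LP4, log2 differences of 3.48, 3.29 and 3.64. *Mmp12* went from 109 to 1222 CPM, from 179 to 1739 and from 223 to 2265 (log2 3.48, 3.28 and 3.34). *Lgals3* itself had log2 differences of 2.05, 1.96 and 2.27, which the score fixes. *Ctsk* (3.34, 3.36 and 3.03), *Mfge8* (2.65, 2.40 and 2.32), *Ckb* (2.30, 2.41 and 2.37) and *Fabp5* (1.39, 1.56 and 1.61) moved up through every bin. *Zfp36l1* (-2.72, -2.45 and -2.33) and *C1qc* (-2.07, -1.73 and -1.90) moved down through every bin. The summed lists changed by 0.71, 0.69 and 0.67 for the V-ATPase, 0.95, 0.98 and 1.00 for lipid handling, -0.85, -0.65 and -0.56 for cytokines and chemokines and -1.08, -1.25 and -1.03 for the cell cycle. Median UMIs per cell also went up from the lowest to the highest bin, from 4298 to 6081.5 in Ctrl, 8340.5 to 11671 in LP1 and 9656 to 15519.5 in LP4, and the part of depth in these trends was not tested. The neutrophil list summed to 2692, 2390 and 5025 CPM in the lowest bin and to 31.1, 19.9 and 44.5 CPM in the highest. How far neutrophil-like cells in the lowest bin add to the trends was not tested either.

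**Figure D4:**
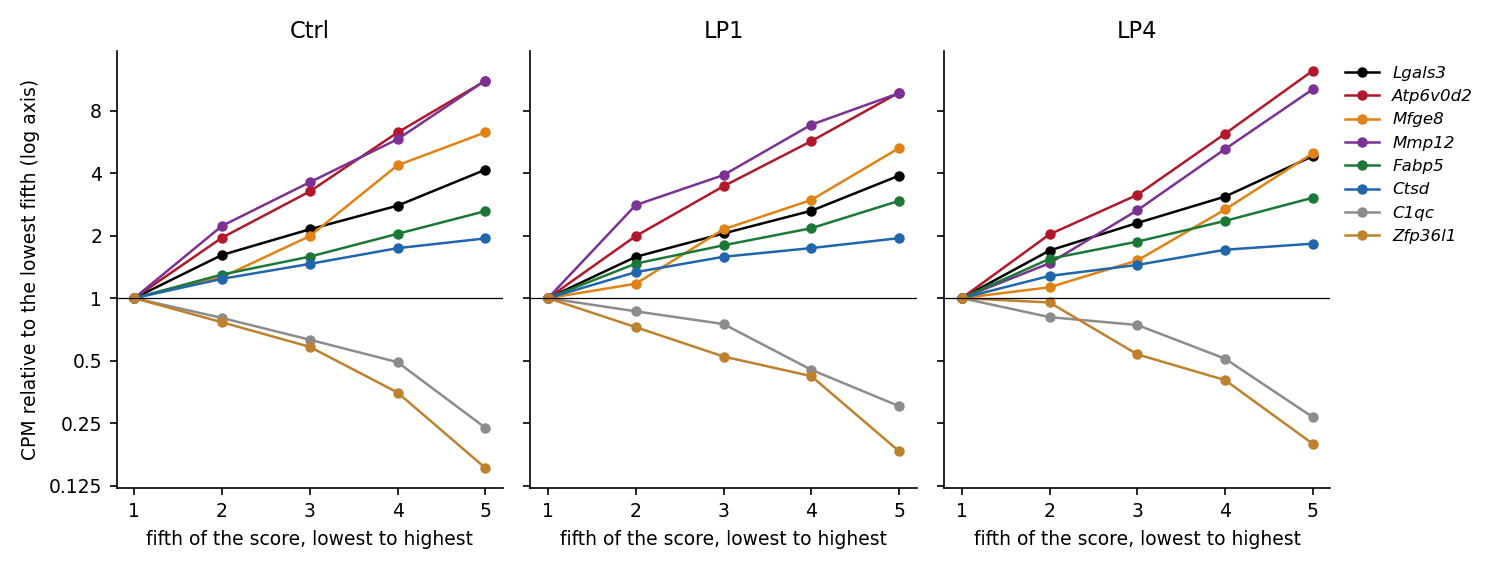
CPM in each of 5 score bins relative to the lowest bin, on a log axis, for 8 genes in cells outside both left-out sets of Ctrl, LP1 and LP4. *Atp6v0d2* ends at 504, 448 and 359 CPM from 45.3, 45.8 and 28.8 CPM, while *Zfp36l1* and *C1qc* step down in every bin.

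High cells were not alike for every gene. The 10% of high cells with the most *Lgals3* UMIs held 21.0%, 19.7% and 21.5% of the *Lgals3* UMIs of Ctrl, LP1 and LP4. Values for *Gpnmb* (25.8%, 24.2% and 24.7%) and *Fabp5* (29.3%, 30.5% and 29.6%) were above that. *Atp6v0d2* (39.6%, 34.8% and 36.3%) and *Mmp12* (45.7%, 41.5% and 45.1%) were more concentrated. *Mfge8* (73.5%, 69.2% and 70.6%) and *Ctsk* (85.3%, 84.9% and 84.6%) sat largely in a minority of high cells. Shares of this kind also depend on depth and on how rare a transcript is. Their part in these shares was not tested.

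The response to *Bb*LP was compared within high cells and within other cells. Both comparisons, and those for 1 and 4 hours, share the Ctrl library. *Lgals3* itself differed by -0.10 (log2) in LP1 and -0.50 in LP4 in high cells and by -0.10 and -0.60 in other cells, and *Atp6v0a1* by -0.50 and -1.39 in high cells and -0.38 and -1.39 in other cells. The score limit was thus lower in LP4, and high cells of different libraries are matched by rank and not by level.

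At 1 hour, 34 of 3483 genes with at least 50 CPM in 1 of the 4 sums and 20 UMIs in each (0.976%) were at least 2-fold higher in high cells than in those of Ctrl and 25 (0.718%) at least 2-fold lower. In other cells the counts were 27 (0.775%) and 15 (0.431%). *Cebpb*, a transcription factor of the acute phase and of macrophages, rose from 105 CPM in Ctrl to 353 in LP1 high cells, a log2 ratio of 1.75 (1.63 to 1.87), and by 1.82 in other cells. *Ccl2* (24.4 to 78.9 CPM, log2 1.69) and *Ccl4* (24.2 to 78.2 CPM, log2 1.69), both chemokines, and *Socs3*, a feedback inhibitor of cytokine receptors (22.8 to 63.7 CPM, log2 1.48), were next in high cells with *Phlda1* (41.9 to 116 CPM, log2 1.47). Outside ribosomal protein, mitochondrial genome and unnamed genes, the largest fall was that of *Romo1*, a protein of the mitochondrial inner membrane, at 264 CPM in Ctrl and 110 in LP1 (log2 -1.26), followed by *Anapc13* of the anaphase-promoting complex (-1.24) and the respiratory chain genes *Uqcr11* (-1.23), *Ndufa2* (-1.20) and *Uqcr10* (-1.19). Of 73 nuclear genes of the respiratory chain, 6 were at least 2-fold lower and 1 at least 2-fold higher, with a median of -0.21, and of 82 ribosomal protein genes 6 were at least 2-fold lower and 1 at least 2-fold higher. Response differed between high and other cells by at least 1.5-fold for 5 genes (0.144%), all more positive in high cells, and 97.6% of genes differed by under 25%. Of the named genes, *Atrnl1* differed by 0.89 (0.52 to 1.26), *Il1a* by 0.75 (0.57 to 0.94), *Klf2*, a transcription factor, by 0.64 and *Socs3* by 0.61 (0.33 to 0.88). The count of 5 ranged from 2 to 83 over the alternatives, so it carries little weight.

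At 4 hours, 488 of 3850 genes (12.7%) were at least 2-fold higher in high cells than in those of Ctrl and 287 (7.45%) at least 2-fold lower, beside 490 (12.7%) and 356 (9.25%) in other cells. *Ch25h*, cholesterol 25-hydroxylase, had no UMI in the high cells of Ctrl and LP1 and 936 UMIs (76.1 CPM) in LP4, which is at least 158-fold higher than the floor of 3 counts over the group, 0.482 CPM. *Cxcl3*, a neutrophil chemoattractant, had 2.09, 5.32 and 291 CPM in the high cells of Ctrl, LP1 and LP4 (log2 of LP4 over Ctrl 7.12). *Nos2*, inducible nitric oxide synthase, had 0.963, 0.0985 and 124 CPM (log2 7.01, on 6 UMIs in Ctrl). Each of these 3 genes was near absent in the high cells of Ctrl and LP1. *Gbp5*, an interferon-induced GTPase, had 13.6, 10.7 and 944 CPM (log2 6.11), *Ccl5* had 3.85, 6.60 and 267 CPM (6.12), and *Socs1*, a feedback inhibitor of interferon signaling, had 1.12, 2.95 and 90.1 CPM (6.33). Of 18 interferon response genes, 17 were at least 2-fold higher in LP4 high cells, with a median log2 ratio of 3.50 against 3.38 in other cells. The median of all 3850 genes was -0.02 in high cells and -0.03 in other cells.

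The genes that fell most in LP4 high cells had different roles. *Fosb*, a subunit of AP-1, had 67.4, 48.4 and 1.46 CPM in Ctrl, LP1 and LP4 (log2 -5.53). *Vegfa*, an angiogenic growth factor, had 85.6, 61.7 and 2.77 CPM (log2 -4.95), beside 72.7, 50.1 and 5.44 CPM in other cells (log2 -3.74). *Plau*, urokinase, had 395, 426 and 37.6 CPM (log2 -3.39). In LP1 these 3 genes were still within 2-fold of Ctrl. *Dusp5*, a phosphatase of ERK (log2 -3.86), *Nfkbid*, a nuclear IκB protein (-3.53), and *Pitpnc1*, a phosphatidylinositol transfer protein (-2.90), also fell. Of 19 immediate early genes 12 were at least 2-fold lower, beside 7.45% of all genes. Their median log2 ratio was -1.14 in high cells and -1.86 in other cells. The V-ATPase, lysosome and lipid handling lists had medians of -0.15, -0.17 and -0.51 in high cells and -0.15, -0.12 and -0.47 in other cells.

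The LP4 response of high cells differed from that of other cells by at least 1.5-fold for 166 genes, more positive for 131 (3.40%) and more negative for 35 (0.909%), while 85.6% of genes differed by under 25%. The largest difference was that of *Rgs1*, a regulator of G protein signaling. It had 146, 188 and 81.8 CPM in the high cells of Ctrl, LP1 and LP4 and 187, 217 and 19.6 CPM in other cells, so its log2 ratio of LP4 over Ctrl was -0.84 in high cells and -3.25 in other cells, a difference of 2.41 (2.25 to 2.58). *Egr1*, an immediate early transcription factor, had 142, 220 and 5.21 CPM in high cells and 317, 338 and 2.94 CPM in other cells, a difference of 1.99 (1.55 to 2.42). *Fos*, another AP-1 subunit, had 635, 456 and 50.6 CPM in high cells and 728, 465 and 18.0 CPM in other cells, a difference of 1.69 (1.53 to 1.85). *Rasgef1b*, an exchange factor for Ras-like proteins, had 669, 678 and 171 CPM in high cells and 1204, 1012 and 99.3 CPM in other cells, a difference of 1.63 (1.54 to 1.72). All 4 genes were lower in high than in other cells of Ctrl and higher in those of LP4, apart from *Fos* in Ctrl, where the groups lay within 25% of each other.

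Some chemokines were lower in the high cells of Ctrl and had a larger log2 ratio at 4 hours. *Ccl4* had 24.2, 78.2 and 1985 CPM in the high cells of Ctrl, LP1 and LP4 and 132, 341 and 2660 CPM in other cells, log2 ratios of LP4 over Ctrl of 6.36 (6.12 to 6.60) and 4.33 and a difference of 2.03 (1.79 to 2.26). *Ccl3* had 36.4, 93.9 and 634 CPM in high cells and 153, 307 and 779 CPM in other cells, a difference of 1.77 (1.58 to 1.97). *Cxcl10*, a chemokine for T cells, had 6.26, 7.29 and 734 CPM in high cells and 23.0 CPM in Ctrl and 969 CPM in LP4 in other cells, a difference of 1.48. At 4 hours *Ccl4* and *Cxcl10* were still lower in high cells, and *Ccl3* (log2 -0.30) was short of the fold. Of 14 cytokine and chemokine genes, 8 were at least 1.5-fold more positive in high cells, 6 did not pass that limit and none was more negative. Of all genes, 3.40% were more positive and 0.909% more negative. In high cells 9 of the 14 were at least 2-fold higher in LP4 than in Ctrl and 2, *Tnf* and *Cxcl2*, at least 2-fold lower, beside 12.7% and 7.45% of all genes. The list medians were 1.54 in high cells and 1.19 in other cells.

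In the other direction, *Mmp19*, a matrix metalloprotease, had 111, 89.3 and 83.5 CPM in the high cells of Ctrl, LP1 and LP4 (log2 -0.41 for LP4) and 43.9, 32.9 and 86.0 CPM in other cells (0.97), a difference of -1.38 (-1.54 to -1.21). *Ptges*, prostaglandin E synthase, had 42.4, 41.6 and 87.8 CPM in high cells and 43.6, 41.9 and 228 CPM in other cells, a difference of -1.34. *Vegfa* differed by -1.21 (-1.74 to -0.68). *Ptges* therefore began level and rose less in high cells, while *Mmp19* began higher in them and ended level. *Plpp3*, a lipid phosphate phosphatase (-1.15), *Sdc1*, the proteoglycan syndecan 1 (-1.05), and *Pdgfa*, a growth factor (-0.94), followed. *Sdc1* had 88.1, 94.5 and 258 CPM in high cells and 35.3, 39.8 and 215 CPM in other cells.

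Choosing cells by *Atp6v0a1* alone changed the largest of these differences. The LP4 response difference was then 0.32 for *Rgs1* and 0.15 for *Egr1*, and *Egr1* was lower in the chosen cells of LP4, with a log2 difference of -0.47 from other cells. The difference was 1.35 for *Ccl4*, 1.32 for *Ccl3*, 1.02 for *Rasgef1b*, 1.49 for *Fos*, 1.96 for *Cxcl10* and -1.91 for *Vegfa*. With a minimum of 5000 UMIs per cell the *Cxcl10* difference was 3.71 and its log2 difference between high and other cells of Ctrl -4.09. With scores from cells thinned to 2000 UMIs the *Cxcl10* response difference was 1.08. The *Rgs1* UMIs of LP4 sat in few high cells. The top 10% of high cells held 89.6% of them in LP4, against 53.0% in Ctrl and 46.2% in LP1, and for *Fos* the shares were 72.8%, 32.2% and 33.0%. High cells with any *Rgs1* UMI made up 21.9% in LP4, 41.4% in Ctrl and 59.6% in LP1. Among other cells 11.3%, 47.3% and 62.0% had a UMI of it, and the concentration in those cells was not computed.

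**Figure D5:**
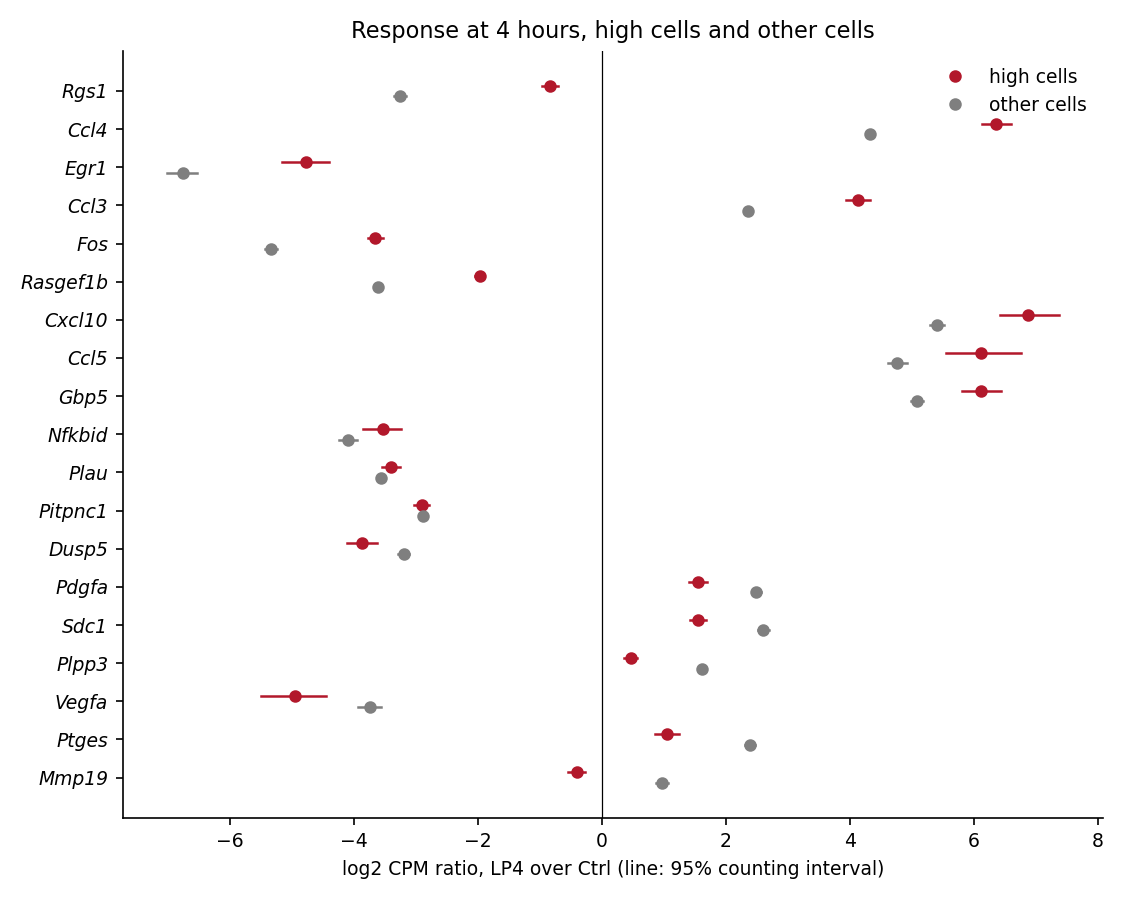
Log2 ratio of LP4 over Ctrl in high cells (red points) and other cells (grey points) for 19 named genes, with 95% counting intervals. *Rgs1* lies at -0.84 in high cells and -3.25 in other cells, *Ccl4* at 6.36 and 4.33, and *Mmp19* at -0.41 and 0.97.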

How the data were processed

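RNA of single BMDMs was measured in 1 library each of Ctrl, LP1 and LP4, and the groups are those of the labels. The reads were counted by the authors against the mouse mm10 transcriptome (Cell Ranger 7.1.0 in the submitters' processing notes), and the deposited values are raw UMI counts of 32285 genes in called cells. No column lacked a sample.

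UMIs were summed over high or other cells, divided by all their UMIs and given as CPM. Groups were compared by log2 ratios of CPM with exact conditional binomial intervals at 95%. Differences between responses have large-count intervals, also at 95%. For genes without a UMI a floor of 3 counts was used, which is 0.482, 0.295 and 0.244 CPM in the high cells of Ctrl, LP1 and LP4. PCR and capture are not covered by these intervals. A gene was past the fold when 25% higher or 20% lower in high than in other cells, with at least 50 CPM in either group of each library, at 2 between libraries and at 1.5 between responses.

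Genes were named by a rule: those that chose the cells, the 12 in each direction with the largest smallest ratio over the 3 libraries and both comparison groups, the 8 and 5 in each direction with the largest LP4 and LP1 response, the 6 and 4 with the largest difference in response, and the most abundant or consistently different genes of each list, without mitochondrial, ribosomal protein and unnamed genes. Values of some genes are not reported here. The cells, the lists and the comparisons were chosen with earlier results of these data known.

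Kept cells of Ctrl share 9 barcode sequences with LP1 and 7 with LP4, LP1 and LP4 share 3, and 0, 3 and 4 high cells of Ctrl, LP1 and LP4 carry such a barcode. Doublets were scored with scrublet in scanpy, which marked 0%, 0.0987% and 0.0642% of cells and so did not work as a caller. Doublets were kept, and an alternative left out the top 5% of scores. Other alternatives were *Lgals3* or *Atp6v0a1* alone, the top 10% or 30%, no removal of the left-out sets, other cells outside those sets, thinning to 2000 UMIs, a random split of the UMIs, other cell limits, scaling by TMM or by the median of ratios, totals without mitochondrial, ribosomal protein and rule genes, means over cells, other minimums and folds, and leaving out cells high for the cell cycle or for neutrophil and dendritic cell lists or with shared barcodes. Random steps used a seed of 20, and the ratios and intervals were tested on simulated sums of independent counts. These sums held no single cells and no choice by score, so spread between cells and the choice itself are not covered. Computation was done in Python 3.11.15 (scanpy 1.11.5, scipy 1.17.1, numpy 2.4.6, matplotlib 3.10.9, pandas 2.3.3), and TMM factors came from edgeR 4.0.16 in R 4.3.3.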

Additional observations from a re-analysis of the deposited data

Results flagged for a closer look

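The 8 genes named here had opposite directions of at least 25% upward or 20% downward, either between libraries or between high and other cells, and none of these differences was tested. *Rgs1* was higher in high cells of LP4 (log2 2.06 against other cells) and lower in those of Ctrl (-0.36). *Egr1* (0.83 in LP4, -1.16 in Ctrl) and *Rasgef1b* (0.78 in LP4, -0.85 in Ctrl) had the same pattern. *Pdgfa* had the reverse, with 0.32 in Ctrl and -0.62 in LP4. With cells chosen by *Atp6v0a1* alone, the LP4 values were 0.039 for *Rgs1*, -0.47 for *Egr1* and 0.55 for *Rasgef1b*. In the 662 LP4 high cells outside the 74 with the largest *Rgs1* share, *Rgs1* stood at 10.8 CPM and *Egr1* at 2.30 CPM. Other cells were not cut in the same way, so these 2 levels cannot be set against theirs. An *Rgs1* UMI was found in 21.9% of high cells and 11.3% of other cells of LP4. For the ratio of LP4 over Ctrl, *Ifitm1* stood at 0.34 in high cells and -0.39 in other cells, *Ccr2*, a chemokine receptor of monocytes, at 0.41 and -0.63, and *Mmp19* at -0.41 and 0.97. For the ratio of LP1 over Ctrl, *Atrnl1* stood at 0.53 in high cells and -0.36 in other cells.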

How the results depend on the processing

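With 1 library per condition no replicate could be left out, and no spread between cultures is known. No paired analysis was possible between conditions because each is 1 library, while high and other cells were compared within each library. High cells were deeper than other cells in every library, and rest mainly on *Lgals3*. Under 22 alternatives, 12989 values of named genes and list medians were compared, and 22 that were past the fold changed sign. Of the remaining values 11803 stayed within 0.2 (log2) and 1164 moved by more. With values short of that limit included, 360 changed sign.

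The counts of 148 genes higher and 258 lower in all 3 libraries became 81 and 91 with *Atp6v0a1* alone, of which 67 and 84 were among the 148 and 258. They were 223 and 439 at a minimum of 20 CPM and 46 and 76 at a fold of 1.5. The lower count was 164 with the median of ratios and 147 at 100 CPM. The 166 genes with a different LP4 response became 97 with *Atp6v0a1* alone (65 of them shared), 277 at 20 CPM, 101 at 100 CPM and 554 when a difference of 25% was enough. The 5 genes of LP1 became 13 against other cells outside the left-out sets, 15 and 3 for the top 10% and 30%, 9 without removal of the sets, 2 after thinning, 20 on split UMIs, 16 at 5000 UMIs, 31 and 2 at 20 and 100 CPM and 83 for differences of 25%. Against other cells outside both left-out sets, the genes lower in all 3 libraries went from 8 to 6 for cytokines and chemokines, 5 to 4 for macrophage markers, 4 to 3 for phagocytic receptors, 3 to 2 for matrix proteases and 3 to 4 for TLR signaling, and those higher from 9 to 8 for the lysosome and 2 to 1 for cholesterol synthesis.

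Sign changes of values that had been at least 25% upward or 20% downward follow. That limit served for responses too, at any level of the gene. Values are log2 differences between high and other cells unless a response is named, and the cause of the changes was not tested. *Ocstamp* in LP4, which had been lower in high cells, became 0.75 outside the sets, 0.15 for the top 10%, 1.37 without removal and 0.31 after thinning. It rests on few counts, with 9 UMIs in the highest score bin of LP4. With *Atp6v0a1* alone, *Egr1* in LP4 became -0.47, *Cd74* in LP4 -0.91 (-0.61 and -1.27 in Ctrl and LP1, where it had been short of the fold), *H2-DMa* -0.19 in LP1 and -0.21 in LP4, *H2-DMb1* in LP1 -0.12, *Gata2* in Ctrl -0.11 and the LP1 response of *Atrnl1* -0.24. On split UMIs *Socs1* in Ctrl became 0.19 and *H2-DMb1* in LP1 -0.032, and at 5000 UMIs the LP1 response difference of *Ccl4* became -0.042. Without cells high for the cell cycle list, *Hist1h2ap* became 0.12, 0.029 and 0.26 in Ctrl, LP1 and LP4. Without cells high for the neutrophil and dendritic cell lists, *S100a8* became 0.55, 0.65 and 0.23, and *Lcn2* 1.23 in Ctrl and 0.27 in LP4.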

Other observations

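Genes of osteoclasts were looked up after the values of *Atp6v0d2*, *Ctsk* and *Acp5* had been seen, and are given as values. *Itgb3*, the β3 integrin, had 47.2, 46.3 and 23.8 CPM in the high cells of Ctrl, LP1 and LP4 and 10.2, 11.5 and 6.87 CPM in other cells (log2 2.21, 2.00 and 1.79). *Car2*, carbonic anhydrase 2, had 19.6, 25.6 and 33.5 CPM in high cells and 6.77, 9.12 and 13.4 CPM in other cells (log2 1.53, 1.49 and 1.32). *Dcstamp*, which encodes a fusion protein of osteoclasts and giant cells, had 89.4, 121 and 48.4 CPM in high cells and 61.5, 65.9 and 15.6 CPM in other cells (log2 0.54, 0.87 and 1.63). Other genes of that cell type did not follow. *Oscar* and *Calcr*, the osteoclast-associated receptor and the calcitonin receptor, had no UMI in high cells. *Nfatc1*, the master transcription factor of osteoclasts, had log2 differences of -0.19, -0.17 and -0.18, and *Tnfrsf11a*, which encodes RANK, -0.27, -0.28 and -0.69.

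Transcription factors of the MiT family, regulators of lysosomal genes, were looked up in the same way. *Tfeb* had log2 differences between high and other cells of 0.46, 0.49 and 0.32 in Ctrl, LP1 and LP4. *Mitf* had -0.45, -0.40 and 0.16, *Tfe3* -0.29, -0.18 and -0.21 and *Tfec* -0.39, -0.03 and 0.01.

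The 10% of high cells with the most *Ctsk* UMIs per cell's total (92, 84 and 74 cells in Ctrl, LP1 and LP4) had 1665, 1799 and 2218 CPM of *Ctsk* against 34.3, 38.1 and 50.1 CPM in the remaining high cells, with median UMIs per cell of 5619, 11706 and 16228 against 6172, 11050 and 15112. Between these groups, chosen after the values were seen, *Mfge8* had log2 differences of 0.92, 0.60 and 1.01, *Acp5* 0.40, 0.80 and 0.59, *Itgax* 0.61, 0.50 and 0.54 and *Atp6v0d2* 0.61, 0.53 and 0.42. *Dcstamp* went the other way, with -0.48, -0.94 and -0.83, and *Lgals3* itself had 0.05, 0.07 and -0.02. *Itgb3* had 0.37, -0.05 and 1.00, *Mmp12* 0.49, 0.24 and 0.03 and *Anxa1* 0.02, -0.09 and 0.03.

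In LP4, the 74 high cells with the largest *Rgs1* share had 633 CPM of *Rgs1* against 10.8 CPM in the other 662. The choice of cells by *Rgs1* fixes that gap. These 74 cells had 104 CPM of *Fos* against 43.7, 27.8 of *Egr1* against 2.30 (3.60), 292 of *Rasgef1b* against 155 (0.91) and 625 of *Tnf* against 326 (0.94). The 10% of high cells with the largest *Rgs1* share in Ctrl and LP1 also had more *Fos* (log2 0.66 and 0.50 over the remaining high cells), *Egr1* (0.58 and 0.50) and *Rasgef1b* (0.56 and 0.47), while *Tnf* stood at -0.19 and 0.09. Differences between the libraries were not tested. In LP4 the levels of *Cxcl10* (789 against 727 CPM) and *Rsad2* (4743 against 4826 CPM), both interferon response genes, in the 74 cells were close to those of the other high cells. Median UMIs per cell were 17930.5 in the 74 cells and 15036 in the remainder, and the part of depth in these differences was not tested.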
